A study of Mus musculus with 7 samples.

Results

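A set of 9 genes of insulin and insulin-like growth factor (IGF) signalling were followed in mouse embryonic cortex. They are the ligand gene Igf1, the receptor genes Insr and Igf1r, the adaptor genes Irs1 and Irs2, and the IGF binding protein genes Igfbp2, Igfbp3, Igfbp4 and Igfbp5. They were taken by symbol from the authors' deposited table of 25239 genes. All 9 were present, and all 9 were among the 14638 genes with an adjusted p-value.

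The samples are cortex of 7 C57BL/6J embryos, electroporated in utero at E13.5 and collected 2 days later, at E15.5. Breasi-CRISPR, which inserts a sequence change with Cas9, a guide and a DNA donor, was used in 3 brains to turn threonine 280 of Ccnd2, the gene of cyclin D2, into alanine. A silent Breasi-CRISPR control was used in the other 4 brains. Every one of the 3 litters gave 1 edited brain, litter 1 gave 2 controls, and litters 2 and 3 gave 1 control apiece. All 7 embryos carry the genotype label of wild type, and electroporation reaches only part of the cells, whose edited share is not in the table. The sources used here do not say what the silent control changes. The table holds 1 comparison, Ccnd2 Thr280Ala over silent control, fitted with litter as a term. Estimated depths, as reads counted in genes, were 20800000 to 32800000 in edited and 19400000 to 29000000 in control libraries. The table gives no value per brain, so which brains were high or low, and whether the groups overlapped, cannot be stated for any gene.

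IGF1, IGF2 and insulin bind the receptor tyrosine kinases encoded by Igf1r and Insr. The active receptors phosphorylate the docking proteins IRS1 and IRS2, which recruit phosphoinositide 3-kinase (PI3K) and so activate the kinase AKT. AKT inhibits the kinase GSK3, and GSK3 is known to phosphorylate D-type cyclins near their C-terminus and so mark them for degradation. Threonine 280 of cyclin D2 is such a site, which ties this pathway to the edited residue. In the embryonic brain, IGF2 from the choroid plexus reaches cortical progenitors through the cerebrospinal fluid, and mice without Igf1r or Irs2 have small brains. IGF binding proteins hold IGFs outside the cell, and proteases that cut them release the ligand.

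The edited codon is shown because it defines the compared groups. It is ACC in the GENCODE M21 transcript Ccnd2-201, in the coding part of exon 5 of 5, on the minus strand of chromosome 6 at 127130365 to 127130367 (GRCm38, mm10). The reference coding sequence of codons 273 to 288 follows, 5′ to 3′, with codon 280 in capitals.
Ccnd2 codons 273 to 288: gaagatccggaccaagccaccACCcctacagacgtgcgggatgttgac
Ccnd2 itself had a mean of 27810 normalized counts in the authors' deposited table, where its log2 fold change was 0.08 with an SE of 0.25 (adjusted p = 0.999).

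None of the 9 genes differed between edited and control brains at an adjusted p below 0.05 in the authors' deposited DESeq2 test. Over all tested genes 36 of 14638 were called, or 0.246%, so that a count of 0 in 9 is near that background. Of these, 9 were higher in edited brains (0.0615% of tested genes) and 27 lower (0.184%). At an unadjusted p below 0.05 there were 0 of the 9 genes, against 5.86% of all tested genes. The log2 fold change was above 0 for 5 of the 9 genes and below 0 for 4, with a median of 0.04, against a median of -0.01 over all tested genes. What separated the members was precision. The 2 receptor and 2 adaptor genes, Igfbp2 and Igfbp3 had 95% intervals that lay within 1.5-fold in either direction. Igf1, Igfbp4 and Igfbp5 had wide intervals that allow both no difference and a fall of more than 2-fold. In cortex as a whole, fewer cells of a type and less RNA per cell cannot be told apart.

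**Figure D1:**
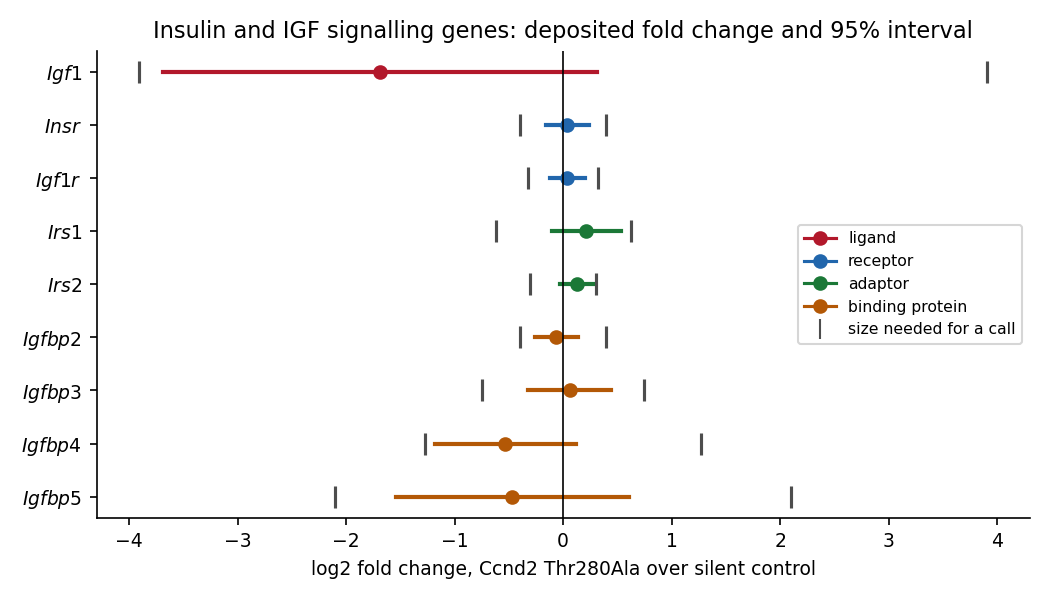
Log2 fold change of the 9 genes, Ccnd2 Thr280Ala over silent control (x axis), 1 gene per row, coloured by role. Points are the deposited estimates, lines their 95% intervals over 7 brains, and grey ticks the size at which a gene with that standard error would have been called. Every interval includes 0 and no point reaches its tick, with Igf1 at -1.69 far wider than the others.

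Both receptor genes differed between edited and control brains by less than their SE. Igf1r (chromosome 7, 67952827 to 68233668), the receptor for IGF1 and IGF2, had a mean of 4340 normalized counts over the 7 brains in the authors' deposited table. Its log2 fold change there was 0.04 (SE 0.08, adjusted p = 0.999), which is 1.03-fold with a 95% interval of 0.917 to 1.15. Insr (chromosome 8, 3122061 to 3279617), the insulin receptor, had a mean of 2661 normalized counts in the authors' deposited table and stood there at 0.04 on the log2 scale (SE 0.10, adjusted p = 0.999). The interval of Insr ran from 0.894-fold to 1.18-fold. Changes beyond about 1.2-fold in either receptor transcript thus lay outside the intervals. A gene had to reach a Wald statistic of about 3.83, the fold change divided by its SE, to join the 36 called genes. For Igf1r this needed a change of 1.25-fold and for Insr 1.31-fold.

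The adaptor genes both lay slightly above 0 without passing. Irs2 (chromosome 8, 10984681 to 11008458), with a mean of 1588 normalized counts in the authors' deposited table, had a log2 fold change of 0.13 there (SE 0.08, unadjusted p = 0.101, adjusted p = 0.948). Irs2 had the smallest SE of the 9 genes, and its interval was 0.983-fold to 1.22-fold. Irs1 (chromosome 1, 82233101 to 82291416), with a mean of 1440 normalized counts, stood in the authors' deposited table at 0.21 on the log2 scale (SE 0.16, adjusted p = 0.999). Its interval reached from 0.930-fold to 1.45-fold. Irs1 and Irs2 had similar mean counts, but the SE of Irs1 was 1.61 times the median of genes within 2-fold of its mean count, and that of Irs2 0.809 times. On the opposite strand, the gene model Gm9747 shares 30.9% of the merged exon bases of Irs1, and 9530052E02Rik 2.6% of those of Irs2. The sources used here do not say whether the counting used strand, so reads of these overlaps cannot be assigned with certainty. Gm9747 had no entry under that symbol in the authors' deposited table, and 9530052E02Rik had a mean of 0.518 normalized counts there. The other 7 genes share no exon base with another annotated gene.

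The ligand gene had the largest and the least certain fold change. Igf1 (chromosome 10, 87858265 to 87937042), which encodes the growth factor itself, had a mean of 351 normalized counts, the lowest of the 9, in the authors' deposited table. Its log2 fold change was -1.69 (SE 1.02, unadjusted p = 0.0973, adjusted p = 0.947) there. The estimate corresponds to 0.310-fold, with an interval of 0.0774-fold to 1.24-fold. At this SE only a change of at least 15.0-fold would have been called. Igf2, the gene of the second ligand and not among the 9, was more abundant, with a mean of 3222 normalized counts in the authors' deposited table. In the same deposited table it stood at -0.79 on the log2 scale (SE 0.67, adjusted p = 0.999), with an interval of 0.233-fold to 1.44-fold.

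The 4 binding protein genes differed in precision, with SEs that rose from Igfbp2 over Igfbp3 and Igfbp4 to Igfbp5. Igfbp2 (chromosome 1, 72824503 to 72852474) had the highest mean of the 9, with 5367 normalized counts in the authors' deposited table, and its log2 fold change there was -0.06 (SE 0.10, adjusted p = 0.999). The interval of Igfbp2 was 0.833-fold to 1.10-fold. Igfbp3 (chromosome 11, 7206086 to 7213923), the main IGF carrier of serum, had a mean of 1246 normalized counts in the authors' deposited table and stood there at 0.06 on the log2 scale (SE 0.20, adjusted p = 0.999), with an interval of 0.801-fold to 1.36-fold. Neither estimate was as large as its SE.

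Igfbp4 and Igfbp5 both lay below 0. Igfbp4 (chromosome 11, 99041244 to 99054392), whose product is cut by the protease PAPP-A, had a mean of 3020 normalized counts in the authors' deposited table, and its log2 fold change there was -0.53 (SE 0.33, unadjusted p = 0.110, adjusted p = 0.948). Its interval was 0.440-fold to 1.09-fold. Igfbp5 (chromosome 1, 72857932 to 72874884), which also binds extracellular matrix, had a mean of 3835 normalized counts in the authors' deposited table and stood there at -0.47 on the log2 scale (SE 0.55, adjusted p = 0.999). The interval of Igfbp5 was 0.343-fold to 1.52-fold. To be called, Igfbp4 would have needed a change of 2.42-fold and Igfbp5 of 4.28-fold. Igfbp2 and Igfbp5 are neighbours on chromosome 1, on opposite strands with their 3′ ends facing across 5.46 kb, and the SE of Igfbp5 was wide where that of Igfbp2 was not. Whether any 2 of these fold changes differ from each other could not be tested without values per brain.

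Read counts rise with transcript length, so levels were compared per kb of merged exons. Exon lengths were matched for 14344 of 14638 tested genes, and the share and median given on this scale refer to those. On this scale Igfbp2 was the highest of the 9, with 2906 normalized counts per kb, above 98.1% of these genes. Igfbp4 with 684 normalized counts per kb and Igfbp5 with 638 came next, followed by Igfbp3 with 398. Igf1r had 258 normalized counts per kb and Irs2 251, Insr 194 and Irs1 157. Igf1 was the lowest, with 35.5 normalized counts per kb, and the only one of the 9 below the tested median of 127. The 4 binding protein genes thus stood above the receptors and adaptors, and the ligand gene below them. Outside the 9, Igfbpl1, an IGFBP-like gene, had 6050 normalized counts per kb, and Igf2 had 563. The table gives no spread over brains for these levels, and pairs as close as Igf1r and Irs2 or Igfbp4 and Igfbp5 are not ranked by them.

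**Figure D2:**
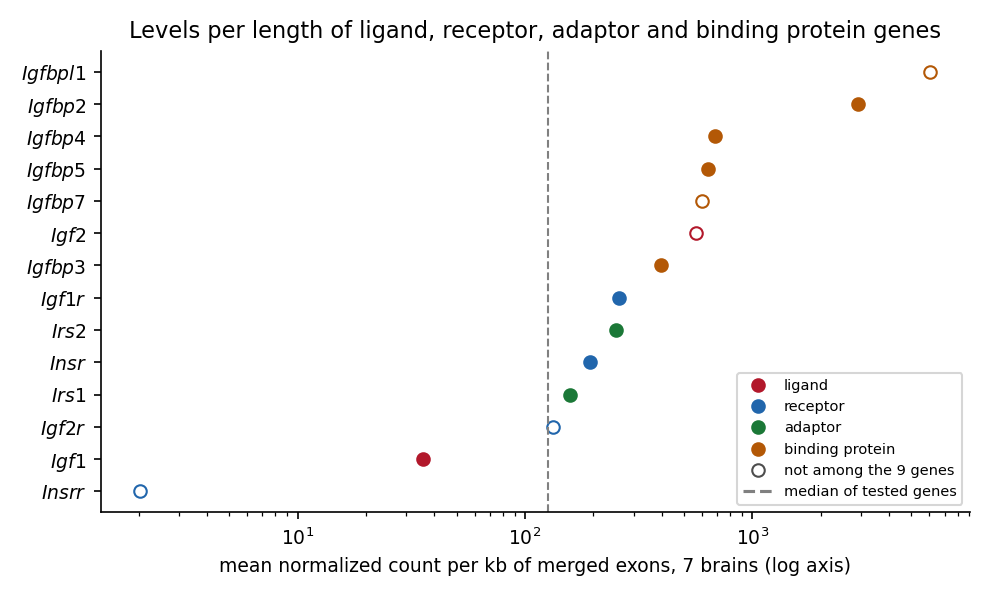
Mean normalized count per kb of merged exons over 7 brains (log x axis) for the 9 genes (filled) and for other tested ligand, receptor and binding protein genes (open), sorted by level. The dashed line is the median of tested genes with a matched exon length, 127. The binding protein genes lie above the other filled points, and Igf1, at 35.5, is the only filled point left of the line.

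In a fit with litter, the SE of a fold change reflects the spread that litter and treatment leave unexplained, besides the number of reads. Every litter had 1 edited brain. Spread between brains of a litter therefore cannot be told apart here from a difference between litters in the effect of the edit. Among genes of like abundance, those within 2-fold of the same mean count, the SE of Igf1r was 1.04 times the median and that of Insr 1.18 times. Igfbp2 was at 1.31 times and Igfbp3 at 1.86 times the median, above 87.0% and 97.5% of genes of like abundance. Igfbp4 was at 3.92 times, Igf1 at 6.31 times and Igfbp5 at 6.72 times. The SEs of these 3 genes exceeded those of 99.0%, 99.4% and 99.7% of genes of like abundance. Expressed as the SD between brains of a litter that would give such an SE, the values were 91.3% for Igf1, 49.0% for Igfbp5 and 29.7% for Igfbp4. The same measure was 7.46% for Igf1r, 9.18% for Insr, 7.11% for Irs2 and 9.21% for Igfbp2, and its median over all tested genes was 12.7%. Irs1 had 14.6% and Igfbp3 17.5%. Igf2, outside the 9, had an SE 7.99 times the median of like genes and a spread of 60.0%. Other pathway genes for secreted proteins varied, with an SE 0.785 times the median of like genes for Igfbpl1 and 0.981 times for Igfbp7. For the 5 genes of IGFBP proteases and their inhibitors it was 0.847 to 2.03 times, highest for Htra1. The large estimate of Igf1 was 1.66 times its SE.

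**Figure D3:**
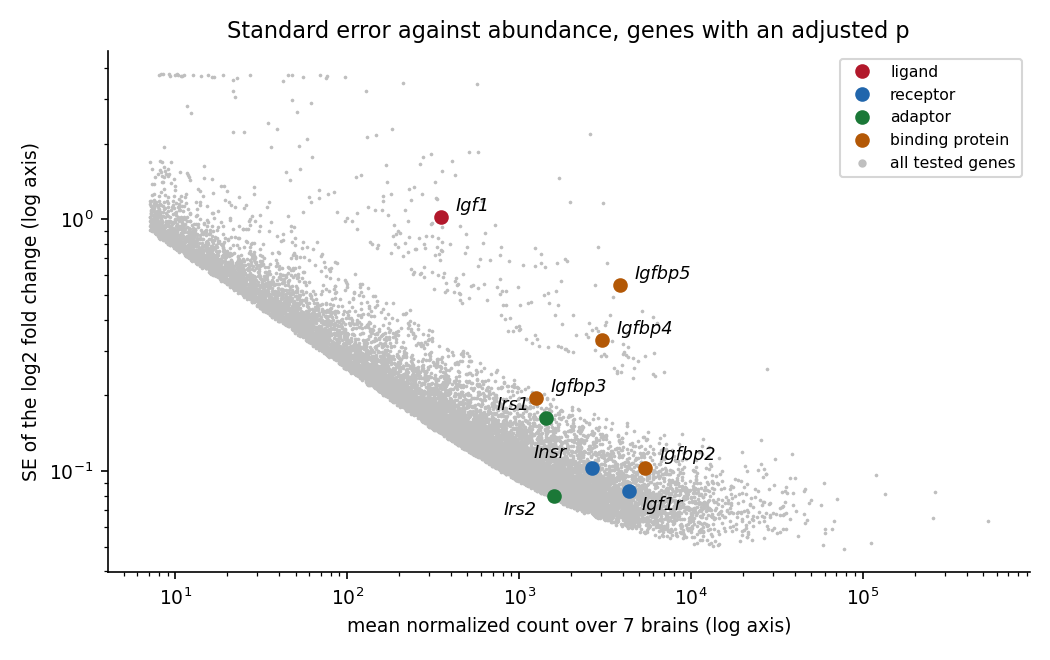
Standard error of the log2 fold change against the mean normalized count over 7 brains, both on log axes, for 14638 tested genes (grey) and the 9 genes (coloured by role). Igf1, Igfbp4 and Igfbp5 lie above at least 99.0% of genes of like abundance at SEs of 1.02, 0.33 and 0.55, while Insr, Igf1r, Irs2 and Igfbp2 lie in the dense band.

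The other genes of the pathway gave the same count of 0. Of 70 listed genes besides the 9, 63 had an adjusted p, and 0 were called in either direction in the authors' deposited DESeq2 test, against 0.246% of all tested genes. At an unadjusted p below 0.05 there were 6 of the 63, 3 above and 3 below 0, against 858 of 14638 tested genes (5.86%), 322 above and 536 below 0. Their median log2 fold change was 0.03, with 40 of 63 above 0, against 48.0% of all tested genes. Values given with an SE for these genes are log2 fold changes.

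Among receptors outside the 9, Igf2r, which clears IGF2 without kinase signalling, had -0.09 (SE 0.19) in the authors' deposited table. Insrr, an insulin receptor-related gene, stood at -5.02 (SE 1.53, unadjusted p = 0.00106, adjusted p = 0.173) there, and its mean was 11.7 normalized counts. Of 16 further adaptor and docking genes tested, 9 lay above 0 and the median was 0.00. Gab1, a docking protein of receptor tyrosine kinases, was at 0.23 (SE 0.09, adjusted p = 0.553) and Grb10, an adaptor that restrains these receptors, at 0.21 (SE 0.12) in the authors' deposited table. Shc1, an adaptor towards the RAS pathway, was at -0.39 (SE 0.22) in that deposited table. None of these passed.

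Of the binding protein genes outside the 9, 2 were tested, and both had an SE below the median of genes of like abundance. Igfbpl1, with a mean of 19662 normalized counts, had a log2 fold change of 0.05 (SE 0.06) in the authors' deposited table, and Igfbp7, with 727, had -0.05 (SE 0.12) there. All 5 genes of IGFBP proteases and their inhibitors lay above 0, with a median of 0.18 and no call. Those with the smallest p were Htra1, a serine protease that cuts binding proteins, at 0.62 (SE 0.47), and Stc2, an inhibitor of PAPP-A, at 0.40 (SE 0.33), both from the authors' deposited table. The 3 genes of Igf2 mRNA binding proteins had a median of 0.06.

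Of 34 genes of the PI3K, AKT, mTOR and FOXO part of the pathway, 23 lay above 0, with a median of 0.04. At an unadjusted p below 0.05 there were 4 of them, 2 above and 2 below 0, against 5.86% of all tested genes. The smallest p belonged to Foxo6, a forkhead transcription factor of the brain that AKT inhibits, which the authors' deposited table puts at 0.21 (SE 0.06, unadjusted p = 0.000523, adjusted p = 0.116). Gsk3b, the kinase described above as acting on D-type cyclins, was at 0.11 (SE 0.05, adjusted p = 0.730) there, an interval of 1.01-fold to 1.16-fold. Pik3cd, a catalytic PI3K subunit best known from leukocytes, was at -0.22 (SE 0.11, adjusted p = 0.800) in that deposited table. The SE relative to genes of like abundance had a median of 0.886 over these 34 genes, which is lower than for either receptor gene.

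**Figure D4:**
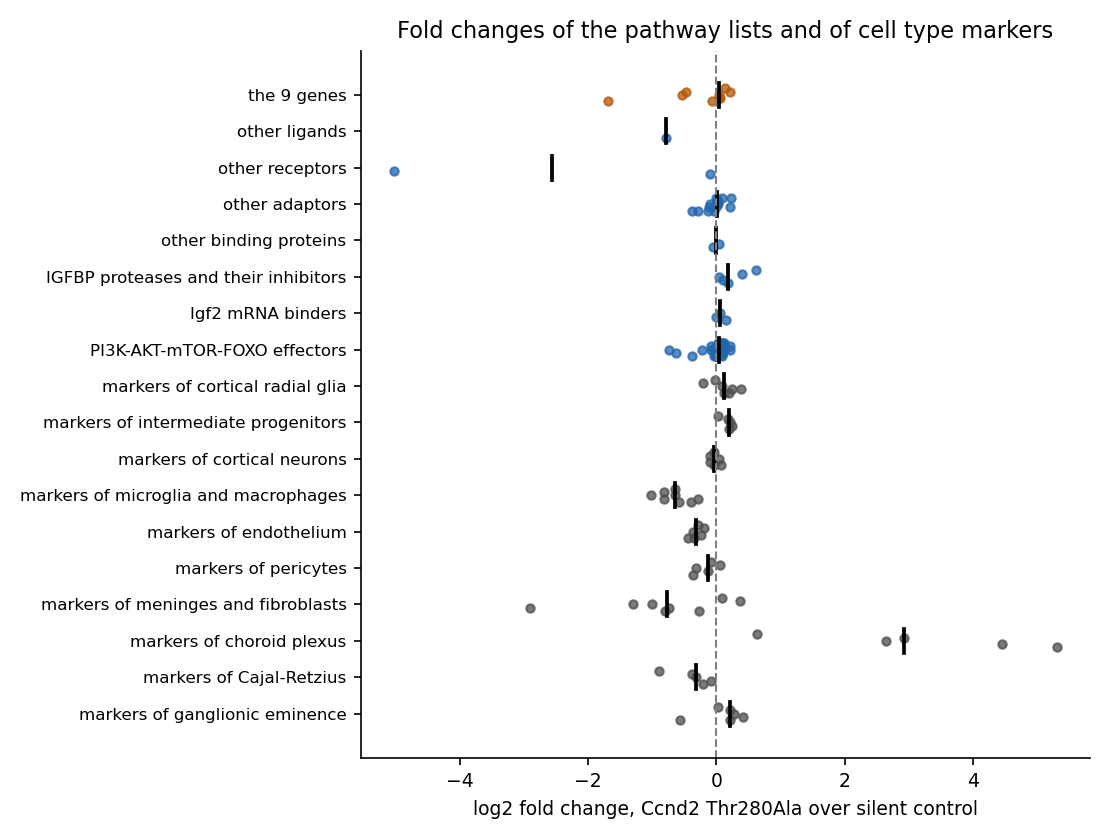
Log2 fold change, Ccnd2 Thr280Ala over silent control (x axis), of the 9 genes (brown), other pathway genes (blue) and cell type markers (grey), 1 row per list. Each point is a tested gene and each bar a list's median. The 9 genes have a median of 0.04, while markers of microglia lie below 0 and those of choroid plexus above.

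Markers of the labelled tissue were abundant, with means of 6080 to 59166 normalized counts for those of cortical neurons. Markers of cells from outside the cortical neuron lineage were read as well, and none of the markers of any list was at 0. Summed levels per group are not in the table. Microglia and macrophage markers lay below 0 in 8 of 8 genes (median -0.64), endothelial markers in 6 of 6 (median -0.32) and pericyte markers in 4 of 5 (median -0.14). Markers of meninges and fibroblasts lay below 0 in 6 of 8 genes (median -0.78), and markers of choroid plexus above 0 in 5 of 5 (median 2.92). Cajal-Retzius markers lay below 0 in 5 of 5 genes (median -0.32), and ganglionic eminence markers above 0 in 5 of 6 (median 0.21). In the cortical lineage, markers of intermediate progenitors lay above 0 in 5 of 5 genes (median 0.20, 2 at an unadjusted p below 0.05). Radial glia markers did so in 5 of 7 genes (median 0.12, 1 at an unadjusted p below 0.05) and neuron markers in 2 of 6 (median -0.04, 0 at an unadjusted p below 0.05). None of these markers was called, while at an unadjusted p below 0.05 there were 5 of microglia and macrophages, 2 of endothelium, 1 of meninges, 3 of choroid plexus and 0 of pericytes, Cajal-Retzius cells and ganglionic eminence. The share over all tested genes was 5.86%. The part of any of these cell types in the fold changes of Igf1, Igfbp4 and Igfbp5 was not tested.

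Wide SEs were shared with some of these lists and not with others. The SE relative to genes of like abundance was 2.01 to 15.1 for the 8 markers of meninges and fibroblasts, 2.02 to 24.8 for the 5 of choroid plexus and 1.35 to 9.03 for the 6 of the ganglionic eminence. The values of Igfbp4, Igf1 and Igfbp5, at 3.92, 6.31 and 6.72, lay inside each of these ranges, which are wide. The list median was 9.33 for meninges and fibroblasts, above all 3 genes, 4.58 for choroid plexus and 5.88 for the ganglionic eminence. Endothelial markers had 0.966 to 1.89 and pericyte markers 0.912 to 1.53, below the 3 genes. Microglia and macrophage markers had 0.966 to 3.37. Cajal-Retzius markers had 0.941 to 5.28 (median 1.54) and radial glia markers 1.20 to 3.96 (median 1.35). These ranges include Igfbp4 but neither Igf1 nor Igfbp5, and of the radial glia markers only Sox2, at 3.96, reached Igfbp4. Of the remaining cortical cells, intermediate progenitor markers had 0.996 to 1.54 and neuron markers 0.794 to 1.39. Among the 2 markers with the smallest p in their lists were Foxc2, a transcription factor of meninges, at -2.90 (SE 1.03) and Ttr, which encodes the thyroid hormone carrier of choroid plexus, at 5.30 (SE 2.17), both from the authors' deposited table. Meningeal and choroid plexus markers had wide SEs with medians of opposite sign, so that the SE alone gives no direction.

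**Figure D5:**
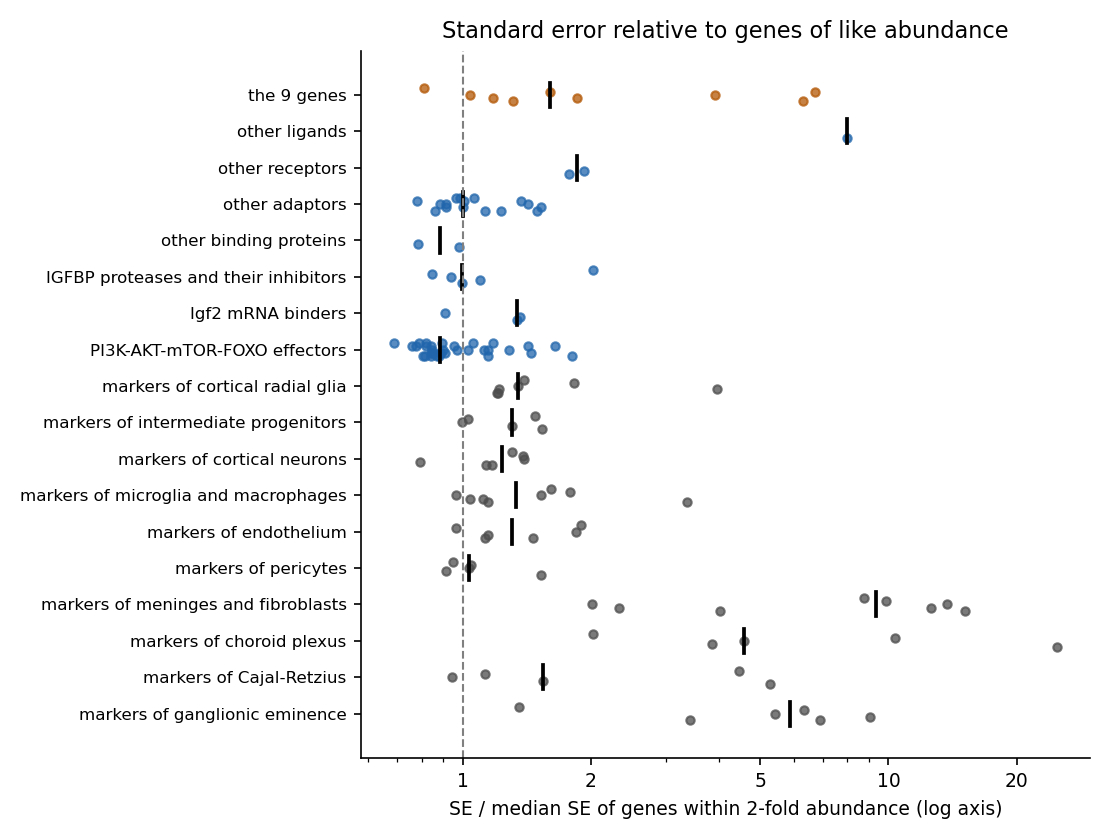
Standard error of the log2 fold change divided by the median of genes within 2-fold abundance (log x axis), by list, with the 9 genes in brown, other pathway genes in blue and cell type markers in grey. Bars are medians. Of the 9 genes 3 lie at 3.92 to 6.72, in the range of meningeal, choroid plexus and ganglionic eminence markers, and the others lie at 1.86 or below.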

How the data were processed

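Polyadenylated RNA was sequenced from 7 cortices. Per the submitters' processing notes, cutadapt, featureCounts, DESeq2 and the build mm10 were used. The sources used here name no versions, aligner, annotation or strand setting. The data are 1 DESeq2 comparison in the authors' deposited table, with no values per library, so nothing was refitted. Its mean normalized count is a signal computed by the authors, averaged over libraries after division by size factors. Its log2 fold change, SE, Wald score and p-values are as deposited, and a call is an adjusted p below 0.05.

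The headers name no direction. Genes whose only read lies in the same library share the same values. The 7 most frequent classes of such values were taken, to match the 7 libraries, and held 694 genes. Fold changes lay above 0 in 3 classes and below 0 in 4, as 3 edited and 4 control brains would give. A negative binomial fit on litter and treatment, with the dispersion set to 10, was run for each assignment of classes to litters. The best assignment returned the values of the classes to within 2.9e-05 (0.19 without litter). These classes also gave size factors. Scaling the summed mean normalized counts by them gave estimates of 19400000 to 32800000 reads counted in genes per library, not reads sequenced. Intervals are normal 95% intervals.

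SEs were set against the median SE of genes within 2-fold of the mean count. They were then converted into the SD between brains of a litter (natural log, times 100) that would give them. This SD includes counting error and any difference between litters in the effect of the edit. In simulated counts with set spreads of 8%, 30% and 90%, the conversion returned medians of 8.31%, 30.1% and 90.0%. The simulated fit was given the set spread, so this checked the conversion and not how spread is estimated from the brains. Merged exon lengths are from GENCODE M21 and cover all isoforms. Python 3.11.15, pandas 2.3.3, scipy 1.17.1 and matplotlib 3.10.9 were used. Named are the 9 genes, up to 3 other genes with the smallest p in each of 5 groups (ligands, receptors, adaptors, binding proteins with proteases, effectors) and, from marker lists, genes among the 2 smallest p. Igfbp7, Igfbpl1, the marker Sox2 and the genes too low to test were added after their values were seen. All genes and lists were chosen with earlier results of these data known. The alternatives are listed with their effects in the closing section.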

Additional observations from a re-analysis of the deposited data

How the results depend on the processing

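None of the 9 genes was called under any of the 4 alternatives for calling (adjustment over all genes with a p-value, a mean of at least 100 normalized counts, Benjamini-Yekutieli adjustment, a threshold of 0.1), nor were any of the other pathway genes. For the 9 genes this outcome was fixed in advance and is no sign of robustness. Their smallest unadjusted p in the deposited Wald test was 0.0973, for Igf1. Adjustment never lowers a p, so none of the adjustments could bring a gene below 0.05. For the threshold of 0.1, their lowest deposited adjusted p was 0.947. Over 36 combinations of gene and alternative, centring on the median gene included, the lowest adjusted p was 0.896. Only centring alters the fold changes themselves, by subtracting the median of -0.01. That median is smaller in size than each of the 9 fold changes, so none could change sign. The count over all genes, 36, was 31 with adjustment over all genes with a p-value, 34 with the filter at 100, 11 with Benjamini-Yekutieli adjustment and 57 at a threshold of 0.1. List medians moved by less than the median SE of the genes in the list in 54 of 54 cases, a wide margin for a median. With the filter at 100, the median of choroid plexus markers went from 2.92 to 3.97 and that of the receptor list from -0.03 to 0.04. With every gene that had a p-value, the median of the ligand list went from -1.24 to -0.79. Leaving out each brain in turn was not run, since the table has no value per library. No paired analysis was possible because the table holds no value per library from which a fit with and without the litter could be made, and the deposited fit already carries litter. The SEs of Igf1, Igfbp4 and Igfbp5 were 3.92 to 6.72 times the median SE of genes with like counts, and the part of depth was not tested.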

Other observations

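Of the listed pathway genes, 1 had no count in any library, the insulin gene Ins1, and 6 had counts too low for an adjusted p in the authors' deposited table. The highest of the 6 was Igfbp6, with a mean of 3.67 normalized counts. Igfbp1, a binding protein made mainly by liver, had a mean of 0.801 normalized counts in the authors' deposited table, and the other insulin gene, Ins2, 0.518. The adaptor genes Irs3 and Irs4 had means of 0.147 and 0.786 normalized counts there, and Igfals, which encodes a serum partner of IGF and its binding proteins, 0.370 in the same deposited table. No fold change is given for these genes.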
